A study of Homo sapiens with 8 samples.

Results

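The RNA of mitotic spindle preparations was compared between STAU1-knockout (STAU1-KO) and wild-type (WT) HCT116 cells, an established human colorectal carcinoma line. The comparison took 4 of the 8 libraries of the series, 2 from STAU1-KO spindles and 2 from WT spindles, chosen by their labels, and the 4 whole-cell (input) libraries of the same genotypes stand beside them. Cells of every group had been held in late G2 with the CDK1 inhibitor RO-3306 for 16 h, released into taxol (100 µM, 15 min) and harvested as rounded mitotic cells by shaking. The knockout was made by CRISPR, and a single clone code marks every STAU1-KO column of the expression table, so the loss of STAU1 and traits of that clone cannot be told apart. The series calls the replicates biological without naming separate cultures, and p-values measure only the spread between these libraries.

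STAU1 encodes Staufen1, which binds double-stranded RNA and is known for the transport, translation and decay of messenger RNAs. Messenger RNAs, ribosomes and noncoding RNAs associate with the mitotic spindle, the microtubule array that separates chromosomes. A spindle pellet also holds what sediments with microtubules, such as centrosomes, chromosomes and membranes. Taxol stabilises microtubules, and the study asked whether loss of STAU1 alters which RNAs are found with the spindle.

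Spindle libraries held 5.21 M to 9.69 M reads on listed genes, and input libraries 9.07 M to 14.6 M (M, 1e6 reads). The WT spindle libraries stood apart from each other: 28S ribosomal RNA (RNA28S5) held 13.6% of reads in WT spindle 1 and 46.1% in WT spindle 2, against 11.0% and 10.8% in STAU1-KO spindles. Across coding genes, which are not independent replicates, log2(FPKM + 1) correlated with r = 0.940 between the WT spindle libraries and r = 0.993 between the STAU1-KO spindle libraries. The targeted gene STAU1 (chromosome 20, ENSG00000124214) stood in input at FPKM 31.9 and 28.5 for WT and at 4.59 and 4.88 for STAU1-KO. Its spindle FPKM was 11.5 and 16.2 for WT against 9.83 and 9.83 for STAU1-KO, a log2 difference of -0.44 with an SE of 0.21 and a limma adjusted p of 0.307 (n = 2 per genotype). The label of the knockout thus matched the level in input, while in spindles the libraries did not overlap but the difference did not pass the test. Of 9 colorectal epithelial markers, 7 were listed and 6 had an FPKM of at least 1 in every spindle library, and the summed FPKM of the 7 was 326 and 910 in WT and 657 and 664 in STAU1-KO spindles. Of 20 markers of blood, fibroblast, endothelial and neuronal cells, 2 were listed (SYT1 and COL1A1), with a summed FPKM of 12.1 to 15.9 in every spindle library.

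Genes with an FPKM of at least 1 in 2 of the 4 spindle libraries numbered 16341, of which 11365 were protein-coding. FPKM values are relative to the other RNA of a library, so fewer transcripts of a gene and more of other RNAs cannot be told apart, nor can fewer cells and less RNA per cell. In limma's test over all tested genes, 0 genes passed an adjusted p under 0.05 (0%), and the smallest adjusted p was 0.131. At an unadjusted p under 0.05, 2144 genes were higher in STAU1-KO spindles (13.1%) and 1387 were lower (8.49%). With voom in limma on recovered reads, 127 were called higher and 53 lower. Genes were also counted as separated where both libraries of a genotype lay above both of the other and the means differed by at least 1 on the log2 scale, a description with no test. By that rule 584 genes (3.57%) were higher and 446 (2.73%) lower in STAU1-KO spindles. With protein-coding sums set equal between libraries, which moved the median difference over all genes from 0.04 to -0.12, the split was 345 higher and 682 lower. Without WT spindle 2 the count of higher genes was 1096, and the count of lower genes was 855 without WT spindle 1 and 728 without WT spindle 2.

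Coding and noncoding RNAs differed in what lay behind these counts. Of the noncoding genes separated, 129 of 161 higher and 307 of 343 lower had fewer than 20 reads in every spindle library. Of coding genes, 7 of 423 higher and 8 of 103 lower were that thin. Coding genes were separated higher in 3.72% of cases and lower in 0.906%. A limma fit of the 11365 coding genes alone called 316 higher (2.78%) and 98 lower (0.862%) at an adjusted p under 0.05. Its smallest adjusted p was 0.0108. This fit was an alternative to the planned test over all tested genes, which called 0. The share it called, 2.78% higher and 0.862% lower, is the background for every coding list below. For coding genes in spindles, it is the fit meant below by "called". With protein-coding sums set equal it called 157 higher and 148 lower. Without STAU1-KO spindle 1 it called 140 higher and 59 lower, of which 98 and 37 were among the 316 and 98. Without STAU1-KO spindle 2 it called 150 and 53, of which 115 and 36 were. With a single WT library the fit called 3632 higher and 2933 lower without WT spindle 1, and 4180 and 1791 without WT spindle 2, since the spread then came from the close STAU1-KO pair alone. All 316 and all 98 genes kept their sign in each of these alternatives. Where the genotypes do not overlap, leaving out a library cannot change the sign, so the kept signs give no support. Of the called genes, 14 of 316 higher and 25 of 98 lower had an FPKM under 1 in both libraries of the lower genotype, as did 14 of 423 and 23 of 103 separated coding genes. These entered the test through the other genotype alone, and their calls give no support.

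Against each WT spindle library alone, the picture was uneven. The mean of the STAU1-KO spindles was at least 1 log2 unit above WT spindle 1 in 853 coding genes and above WT spindle 2 in 311, and 196 genes were in both counts. It was at least 1 unit below WT spindle 1 in 64 coding genes and below WT spindle 2 in 391, with 40 in both. The WT spindle libraries themselves differed by at least 1 unit in 647 coding genes, and the STAU1-KO spindle libraries in 11.

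**Figure D1:**
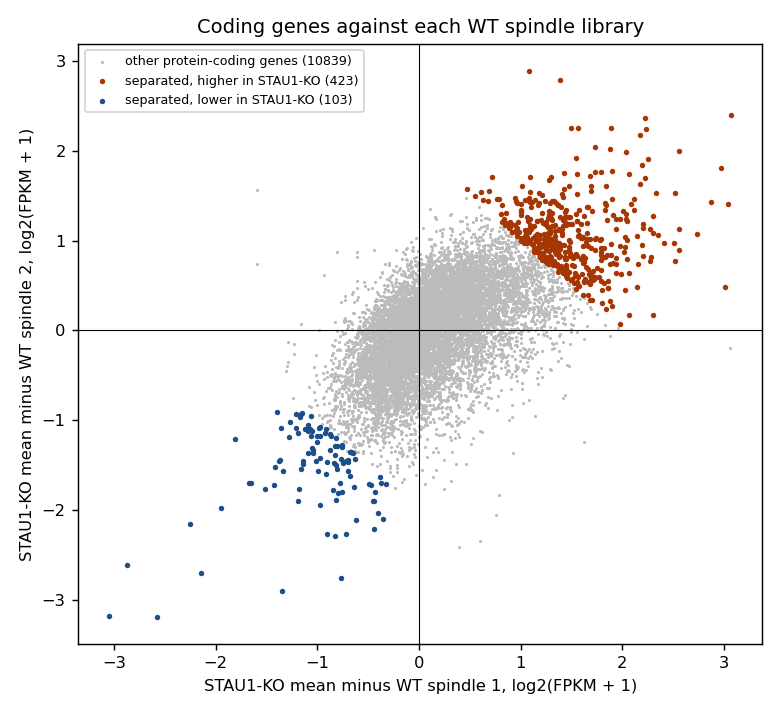
Each point is a protein-coding gene, with the STAU1-KO spindle mean minus WT spindle 1 on the x axis and minus WT spindle 2 on the y axis, both in log2(FPKM + 1). The 423 genes separated higher lie at the upper right and the 103 separated lower at the lower left; since both axes share the STAU1-KO mean, the slope of the cloud is no result.

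The 12 coding genes that led the higher side by p lay 1.54 to 2.29 log2 units above WT, and all 12 were called (adjusted p 0.0174 to 0.0331). EMP3, a small tetraspan membrane protein, had an FPKM of 2.39 and 2.36 in WT and of 15.0 and 14.8 in STAU1-KO spindles. CNIH1, a cargo receptor for export from the endoplasmic reticulum (ER), had 4.64 and 4.12 against 20.1 and 19.4, a difference of 1.95 (SE 0.15, coding-only adjusted p = 0.0248). SELENOF, a selenoprotein of the ER lumen, had 5.08 and 4.96 against 19.6 and 18.8. In each of these genes the WT libraries lay close together, and both were several-fold under the STAU1-KO libraries. The choice of separated genes with the smallest p favours that pattern.

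TSPAN6, a tetraspanin, had an FPKM of 1.63 and 1.56 in WT and of 7.76 and 7.07 in STAU1-KO spindles. SERINC1, a multi-pass membrane protein tied to serine incorporation into lipids, had 7.70 and 8.48 against 32.0 and 30.9, and YIPF5, a protein of ER-to-Golgi vesicles, had 1.96 and 1.69 against 7.21 and 7.22. C1GALT1C1, the ER chaperone of an O-glycan synthase, had 2.95 and 4.02 against 17.2 and 16.9. These genes were flat in whole cells: of the 12 leading genes, 7 lay within 0.5 log2 units in input, and CNIH1 had 39.5 and 43.2 in WT input against 40.0 and 41.7 in STAU1-KO input.

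The other leading genes were also higher in STAU1-KO input. VCAN, the extracellular matrix proteoglycan versican, had spindle FPKM values of 6.55 and 5.85 for WT and 34.2 and 34.3 for STAU1-KO, and of 6.93 and 4.99 against 22.1 and 21.5 in input. FGF9, a secreted growth factor, had 1.47 and 0.918 against 7.98 and 8.34 in spindles, and NT5E, the cell surface enzyme CD73, had 2.76 and 3.80 against 17.4 and 16.5. SEMA3C, a secreted semaphorin, had 3.92 and 4.21 against 14.8 and 15.0. VCAN, FGF9, NT5E and SEMA3C were at least 1 log2 unit higher in input too, and all 4 passed the test there (adjusted p = 0.0316 for each). In input, 73 of 14196 genes were called higher (0.514%) and 98 lower (0.690%), and the counts were 2 and 5 without WT input 1, 15 and 16 without WT input 2, and 0 and 0 without either STAU1-KO input library.

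B2M, the light chain of MHC class I, had the largest difference of any coding gene on the higher side and was chosen after its values were seen. Its spindle FPKM was 7.89 and 13.2 for WT and 78.1 and 69.7 for STAU1-KO, a difference of 2.73 (SE 0.29, coding-only adjusted p = 0.0338), and of 101 and 107 against 114 and 117 in input. S100A4, a calcium-binding protein of the mesenchymal list, had 10.7 and 25.1 against 88.0 and 92.8 in spindles (coding-only adjusted p = 0.0499). Both WT libraries were far under the STAU1-KO libraries for both genes, although they differed from each other by more than in the leading genes.

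The 12 coding genes that led the lower side lay between -3.12 and -1.11 log2 units, and all were called (adjusted p 0.0108 to 0.0368). Of the 12, NRIP1, PROM2, C1orf106, MAL2 and C6orf132 were under an FPKM of 1 in both STAU1-KO spindle libraries and entered the test through WT alone. NRIP1, a corepressor of nuclear hormone receptors, had spindle FPKM values of 8.36 and 9.33 for WT and 0.112 and 0.157 for STAU1-KO. In input it had 11.5 and 13.9 against 0.154 and 0.126, so NRIP1 was near absent from all STAU1-KO libraries. Of the 12 genes, 9 were at least 1 log2 unit lower in input as well and 6 passed the test there.

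GRHL2 and MAL2, both on the epithelial identity list, were among the 12. GRHL2, a transcription factor of epithelial identity, had an FPKM of 8.60 and 9.13 in WT and of 2.60 and 2.84 in STAU1-KO spindles. MAL2, a protein of apical transport, had 5.59 and 8.70 against 0.594 and 0.401, and in input 59.6 and 78.5 against 3.76 and 4.17. PROM2, a prominin of membrane protrusions, had 8.11 and 7.52 against 0.833 and 0.989, and EPN3, an epsin of endocytosis, had 5.6 and 5.83 against 1.18 and 1.02. In each, both WT libraries lay above both STAU1-KO libraries by a wide margin, as the rule that picked them required. The remaining leading genes were C1orf106, ZNF516 (a zinc finger protein), DOC2B (a calcium sensor of exocytosis), VGF (a neuropeptide precursor), ATP2C2 (a calcium pump of the secretory pathway), C6orf132 and PVRL1 (nectin 1). PVRL1 was an exception to the match with input, with 8.45 and 8.65 against 3.46 and 3.39 in spindles but 3.85 and 4.50 against 3.51 and 3.31 in input.

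**Figure D2:**
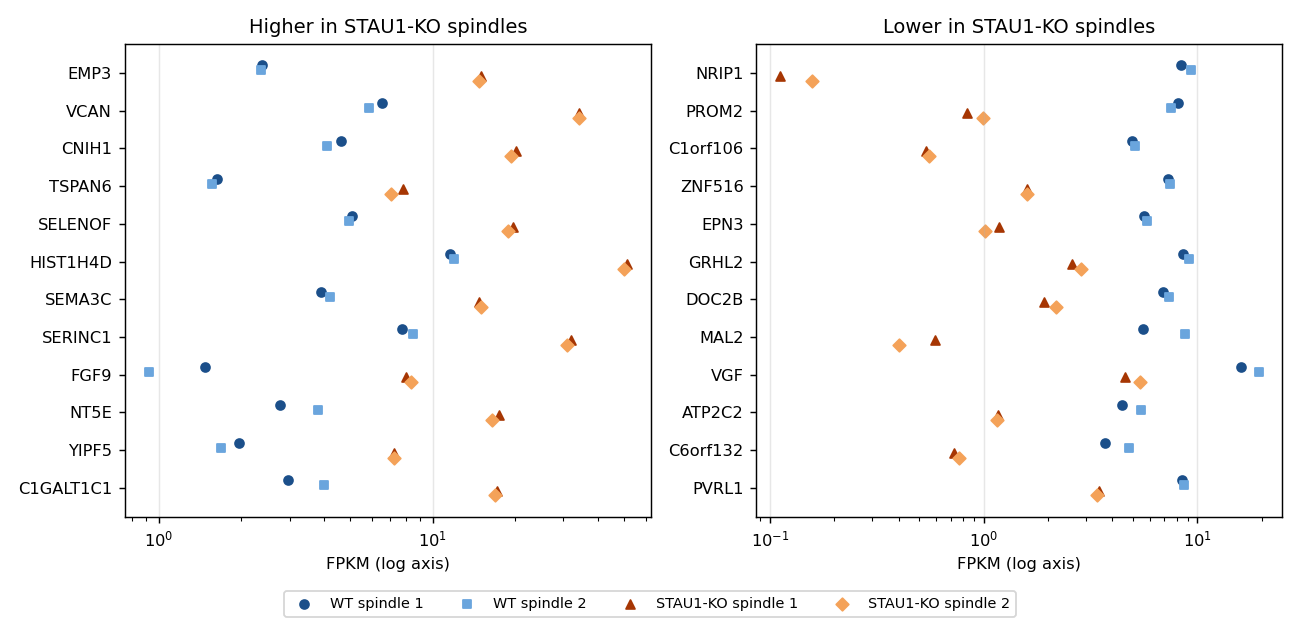
FPKM on a log axis of the 12 leading coding genes in each direction, with 1 point per spindle library and no error bars, since every library is drawn. The genes were picked as separated between genotypes with the smallest p, so the gap between genotypes and the closeness of replicates follow from that choice. Examples are EMP3 at 2.39 and 2.36 against 15.0 and 14.8 and NRIP1 at 8.36 and 9.33 against 0.112 and 0.157.

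Most coding genes separated higher in spindles were at like levels in whole cells. Of the 423 genes separated higher, 382 lay within 0.5 log2 units in input and 11 were at least 1 unit higher there. Of the 103 separated lower, 49 lay within 0.5 units and 19 were at least 1 unit lower. Over all coding genes, 10963 of 11365 lay within 0.5 units in input.

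Genes of the ER entry machinery had the highest median of the lists with both WT libraries averaged, while heat shock chaperones stood higher against WT spindle 1 (1.27) and histones against WT spindle 2 (0.86). Of 42 genes for ER chaperones and the translocon, the channel through which nascent proteins enter the ER, 19 were separated higher and 0 lower, which is 45.2% of the list beside 3.72% of coding genes, and 9 were called higher. Their median difference was 0.89, with 1.14 against WT spindle 1 and 0.65 against WT spindle 2, beside a median of 0.09 over all coding genes and 0.02 for this list in input. SEC62, a translocon subunit, had an FPKM of 2.58 and 2.45 in WT and of 7.52 and 6.57 in STAU1-KO spindles. STT3B, a catalytic subunit of the enzyme that attaches N-glycans, had 18.3 and 17.4 against 52.3 and 48.7, a difference of 1.45 (SE 0.22, coding-only adjusted p = 0.0436). TRAM1, a translocon partner, had 6.70 and 5.55 against 17.2 and 15.8. All 3 genes were at like levels in the inputs, as for STT3B at 52.7 and 55.8 against 57.6 and 63.5.

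A wider set of 241 coding genes of multi-pass membrane families was put together after the values were seen, and it gives no support of its own. Of its 231 tested genes, 17 were separated higher and 0 lower, 15 were called higher and 0 lower, and its median difference was 0.12. That median became -0.04 with protein-coding sums set equal.

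Nuclear-encoded genes of mitochondrial energy production had a positive median difference as well. Of 80 respiratory chain genes, 23 were separated higher and 0 lower (28.7% beside 3.72%), 12 were called higher, and the median difference was 0.72 (0.95 against WT spindle 1 and 0.52 against WT spindle 2), with -0.15 in input. NDUFA1, a subunit of complex I, had an FPKM of 5.19 and 8.16 in WT and of 35.4 and 35.7 in STAU1-KO spindles. COX7A2, a subunit of cytochrome c oxidase, had 4.66 and 3.37 against 15.4 and 15.7, and NDUFA4 had 2.72 and 2.67 against 9.47 and 7.83. In input NDUFA1 had 125 and 103 against 106 and 110, so its FPKM was many-fold lower in WT spindles than in WT cells, and less so in STAU1-KO spindles. Of 75 mitochondrial ribosomal protein genes, 9 were separated higher and 0 lower and 11 were called higher, with a median difference of 0.39. MRPL1 had 4.31 and 5.24 against 15.6 and 12.4.

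Replication-dependent histone genes encode messenger RNAs that end in a stem-loop instead of a poly(A) tail. Of 45 tested, 18 were separated higher and 0 lower (40.0% beside 3.72%), and 8 were called higher. The median difference was 0.81, and the WT libraries gave nearly the same values, 0.92 and 0.86, while input gave -0.09. HIST1H4D had an FPKM of 11.6 and 12 in WT and of 51.2 and 50.0 in STAU1-KO spindles, HIST1H4C had 10.3 and 12.3 against 39.7 and 38.8, and HIST2H2AC had 16.6 and 13.2 against 58.4 and 56.6. All WT values lay under all STAU1-KO values in these 3 genes, which were picked for the smallest p of the list. Histone genes have near-identical copies, and how the authors' counting shared reads between them is not given in the sources used here, so values of single copies are uncertain.

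Genes whose proteins build and check the spindle had a positive median difference. Of 46 genes of spindle assembly and the checkpoint, 11 were separated higher and 0 lower (23.9% beside 3.72%). MAD2L1, TTK and ASPM were called, 3 of 46 beside 2.78% of all coding genes called higher. The list's median was 0.69, with 0.96 against WT spindle 1 and 0.37 against WT spindle 2, and 0.16 in input. MAD2L1, which delays anaphase until chromosomes are attached, had an FPKM of 2.55 and 2.74 in WT and of 8.28 and 7.30 in STAU1-KO spindles. TTK, a checkpoint kinase, had 6.73 and 6.22 against 17.8 and 16.0. ASPM, a spindle pole protein whose messenger RNA is known to localise to centrosomes, had 11.3 and 12.5 against 33.9 and 28.7. For ASPM the input values were 13.7 and 13.0 against 18.6 and 21.4, so a smaller difference of the same sign was present in whole cells.

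Of 36 kinetochore and centromere genes, 5 were separated higher and 0 lower (13.9% beside 3.72%), and the median difference was 0.53. Of the 36, 3 were called higher, beside 2.78% of all coding genes. SPC25, a subunit of the NDC80 complex that holds microtubules, had an FPKM of 3.40 and 3.02 against 6.79 and 7.40, and SGOL2, a protector of centromeric cohesion, had 3.02 and 5.00 against 12.2 and 11.2. Of 43 genes for centrosome proteins, 0 were separated in either direction and 0 called, 11 were higher and 0 lower at an unadjusted p under 0.05, and the median was 0.22. Over all 11365 coding genes, 1882 were higher and 826 lower at that p. Of 35 kinesin genes, 2 were separated higher (5.71%) and 1 was called higher, with a median of 0.14. Of 13 tubulin genes, 4 were separated higher (30.8%) and 1 was called, TUBA1C, with 10.4 and 11.8 in WT and 28.9 and 26.7 in STAU1-KO spindles. Tubulin genes are also close copies of each other, with the same uncertainty as for histones.

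Ribosomal, chaperone, glycolysis and proteasome genes had positive medians that depended on the WT library used. Over all coding genes, 3.72% were separated higher and 2.78% were called higher. The 82 cytosolic ribosomal protein genes had a median difference of 0.78 against WT spindle 1 and 0.13 against WT spindle 2. Of these, 9 were separated higher (11.0%), 0 lower and 4 called higher. The 29 heat shock chaperone genes had medians of 1.27 and 0.27, with 8 separated higher (27.6%) and 2 called higher. The 18 glycolysis genes had medians of 0.82 and 0.06, with 5 separated higher (27.8%) and 0 called, and 52 ribosome biogenesis genes had 0.74 and 0.09. LDHB, a lactate dehydrogenase subunit, shows the pattern, with an FPKM of 32.8 and 89.9 in WT and of at least 197 in both STAU1-KO spindle libraries (difference 1.85, SE 0.60, coding-only adjusted p = 0.115). RPS13, a ribosomal protein gene with close WT libraries, had 18.5 and 19.2 against 47.0 and 47.0 and was called (coding-only adjusted p = 0.0466). In the 43 proteasome genes the medians were 0.86 and 0.30, and 1 gene, PSMA4, was called higher, near the share of all coding genes.

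The 47 splicing and speckle protein genes had a median difference of 0.61 (0.61 against WT spindle 1 and 0.43 against WT spindle 2), yet 1 was separated higher. SRSF3, a splicing factor, had an FPKM of 22 and 20.2 in WT and of 44.9 and 43.2 in STAU1-KO spindles. The 31 nuclear pore genes had a median of 0.37 (0.55 and 0.21), with NUP155 called higher at 13.5 and 13.4 against 30.6 and 28.8. Median differences were smaller for 43 translation factors, at 0.29 (0.57 and 0.07), and 65 chromatin regulators, at 0.11 (0.18 and -0.01), and the latter became -0.08 with protein-coding sums set equal.

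In the 19 tested Staufen and decay genes, which include the paralog STAU2 and factors of nonsense-mediated decay, 0 were separated and the median difference was 0.17, or 0.00 with protein-coding sums set equal. UPF3B, a factor that links the exon junction complex to decay, was the 1 gene called, with an FPKM of 5.67 and 5.49 in WT and of 11.1 and 11.1 in STAU1-KO spindles. STAU2 had 4.17 and 2.83 against 5.00 and 5.37, a difference of 0.48 (SE 0.20, limma adjusted p = 0.261).

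**Figure D3:**
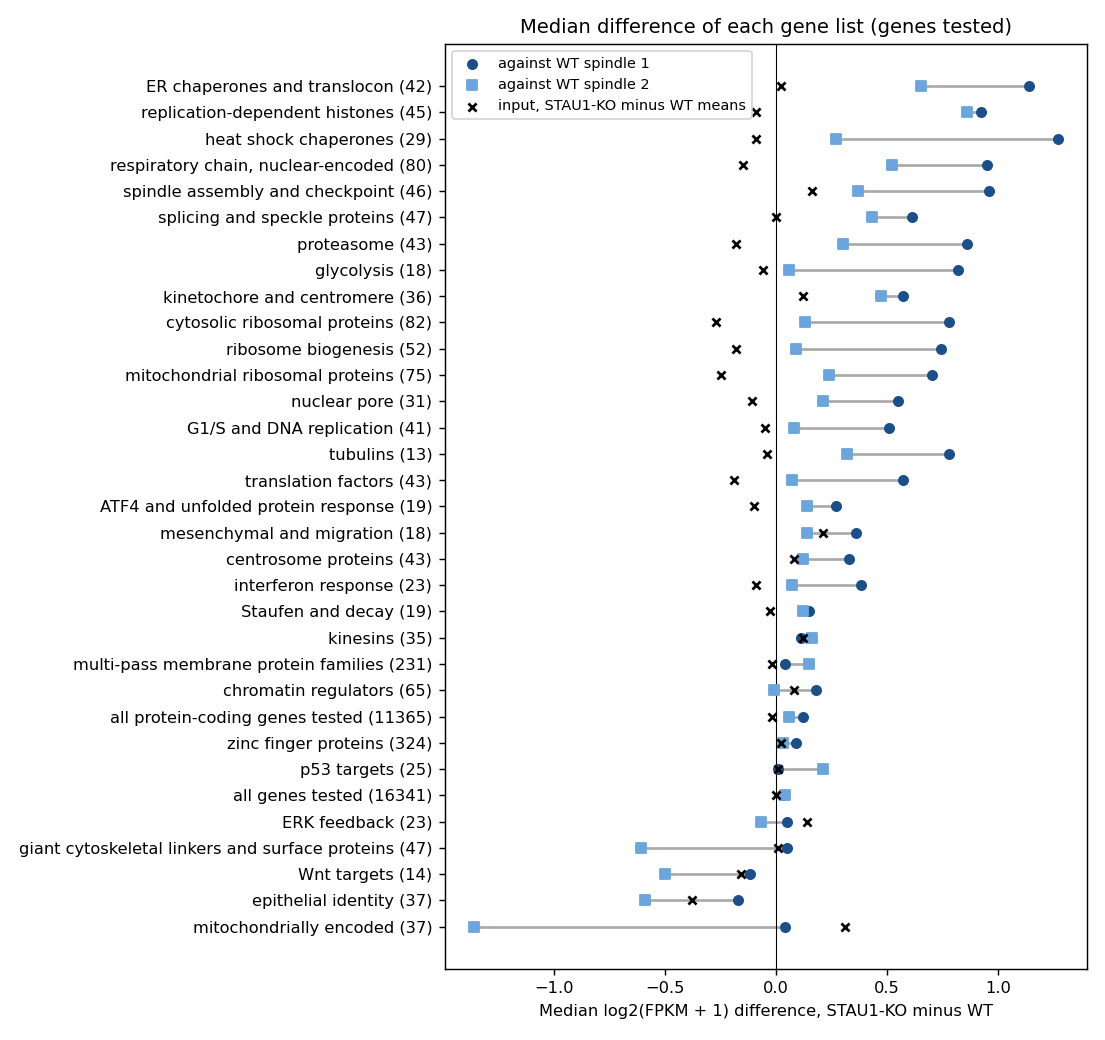
Median difference in log2(FPKM + 1), STAU1-KO minus WT, of each gene list with at least 10 tested genes, against WT spindle 1 (circles), against WT spindle 2 (squares) and in input (crosses), with the number of genes tested in brackets. The histone list gave 0.92 and 0.86 with the 2 WT libraries, while the mitochondrially encoded list gave 0.04 and -1.36.

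Epithelial identity genes had a negative median in spindles and in input. Of 37 tested, 5 were separated lower and 1 higher (13.5% and 2.70%, beside 0.906% and 3.72%). GRHL2, MAL2 and S100A14 were called lower, 3 of 37 beside 0.862% of all coding genes. MAL2 was under an FPKM of 1 in both STAU1-KO spindle libraries, so that its call gives no support. The median difference was -0.38, with -0.17 against WT spindle 1 and -0.59 against WT spindle 2, and -0.38 in input. S100A14, a calcium-binding protein of epithelia, had an FPKM of 10.9 and 18.5 in WT and of 3.89 and 4.60 in STAU1-KO spindles, and of 92.5 and 113 against 13.3 and 14.4 in input. The gene separated higher was EPCAM, an epithelial adhesion protein, with 22.1 and 55.7 against 85.1 and 76.0 (coding-only adjusted p = 0.175). Of 14 Wnt target genes, 1 was separated and called lower, NKD2, a Wnt inhibitor, with 6.33 and 8.15 against 2.24 and 2.91.

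Of 18 mesenchymal and migration genes, 3 were called higher and 1 lower, beside 2.78% and 0.862% of all coding genes. VCAN, S100A4 and VIM were the higher genes, of which VIM reached an FPKM of 1 in STAU1-KO spindles alone, so that its call gives no support, and the lower gene was SNAI1, a transcription factor of mesenchymal transition, with an FPKM of 5.81 and 6.31 in WT and of 2.15 and 2.82 in STAU1-KO spindles. VIM, the mesenchymal intermediate filament vimentin and chosen after its values were seen, had 0.114 and 0.0932 against 1.59 and 1.53 in spindles and 0.233 and 0.0814 against 2.10 and 2.02 in input, so it was low everywhere and higher in all STAU1-KO libraries. Of 23 genes of ERK feedback, 4 were called higher and 0 lower, beside 2.78% and 0.862% of all coding genes. Among them were FGF9, the ephrin receptor EPHA4 and the ERK phosphatase DUSP6. The transcription factor ETV1, 1 of the 4, was under FPKM 1 in both WT spindles, so that its call gives no support. DUSP6 had 11.1 and 11.6 against 28.2 and 29.4 in spindles and 18 and 19.1 against 38.5 and 39.7 in input, and the list's median was 0.03, or -0.17 with protein-coding sums set equal.

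For mitochondrially encoded genes and giant linkers the sign of the median depended on the WT library. The 37 mitochondrially encoded genes had a median difference of 0.04 against WT spindle 1 and -1.36 against WT spindle 2. Of them 10 were separated lower and 1 higher (27.0% and 2.70%, beside 2.73% and 3.57% over all genes). At an unadjusted p under 0.05, 2 were lower and 0 higher, beside 8.49% and 13.1% of all genes. MT-TF, the member with the smallest p, had 2 and 4 reads in WT and 1 and 0 in STAU1-KO spindles. The 47 genes for giant cytoskeletal linkers and surface proteins had 0.05 and -0.61, and 1 of them, NOTCH3, was called lower, with an FPKM of 10.7 and 9.76 in WT and of 4.62 and 5.62 in STAU1-KO spindles. The medians of both lists were negative against WT spindle 2 alone, the library with 46.1% of its reads on 28S ribosomal RNA.

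Interferon, p53, ATF4 and DNA replication genes held 0 to 2 calls per list, beside 2.78% of all coding genes called higher. IFI6, an interferon-induced gene, had an FPKM of 0.657 and 1.61 in WT and of 5.84 and 6.50 in STAU1-KO spindles and was called higher (coding-only adjusted p = 0.0391). Of 25 p53 targets 1 was called higher, FAS, and its list had a median of 0.04. Of 41 genes of G1/S and DNA replication 2 were called higher, RPA2 and RPA3, and of 19 ATF4 and unfolded protein response genes 0 were called, with 5 higher and 0 lower at an unadjusted p under 0.05, beside 1882 and 826 of 11365 coding genes. Of 324 zinc finger protein genes, 1 was called higher and 2 lower, and the median was 0.06.

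Noncoding RNA made up most of the summed FPKM in every spindle library, with a larger share in WT than in STAU1-KO spindles. Protein-coding genes held 29.8% and 22% of summed FPKM in WT spindles and 45.9% and 44.1% in STAU1-KO spindles. The STAU1-KO share was near the 44.7% to 50.3% of the inputs. Coding genes summed to an FPKM of 96541 and 135878 in WT and of 131808 and 131461 in STAU1-KO spindles, so only WT spindle 1 was lower. Of recovered reads, which are not divided by length, they held 72.8% and 47.0% in WT and 80.2% and 79.9% in STAU1-KO spindles. The microRNA loci MIR3687-2 and MIR3648-2, which lie in the spacer of the ribosomal RNA precursor and were chosen after their values were seen, held 27.0% and 32.6% in WT spindles, 12.6% and 13.5% in STAU1-KO spindles and 0.682% to 0.783% in inputs. FPKM divides by length, and these genes are very short: of recovered reads, the pair held 1.37% and 1.51% in WT and 0.436% and 0.477% in STAU1-KO spindles. For the class shares, 2 against 2 libraries cannot go below p = 0.33 in an exact permutation test, and they are given as values.

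MIR3648-2 had an FPKM of 40600 and 90200 in WT and of 12900 and 13600 in STAU1-KO spindles, a difference of -2.19 (SE 1.48, limma adjusted p = 0.430). MIR3687-2 had 46800 and 111000 against 23200 and 26700. The genotypes did not overlap in either gene, and neither passed the test. Reads of total RNA over a microRNA gene need not be the mature microRNA. The mature sequences of MIR3648-2, a member of this pair, and of MIR1285-1, which led the noncoding genes on the lower side, are shown from RefSeq (GRCh38.p14) with the seed, bases 2 to 8, in capitals; MIR3648-2 is at chr21:8987026-8987046 on the plus strand and MIR1285-1 at chr7:92204027-92204048 on the minus strand.
hsa-miR-3648: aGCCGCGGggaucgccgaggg
hsa-miR-1285-3p: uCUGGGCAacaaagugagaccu
The seeds differ, and the GC content is 81.0% for the first and 50.0% for the second. MIR1285-1 had an FPKM of 11.8 and 11.0 in WT and of 1.05 and 1.49 in STAU1-KO spindles, from no more than 7 reads in any spindle library.

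**Figure D4:**
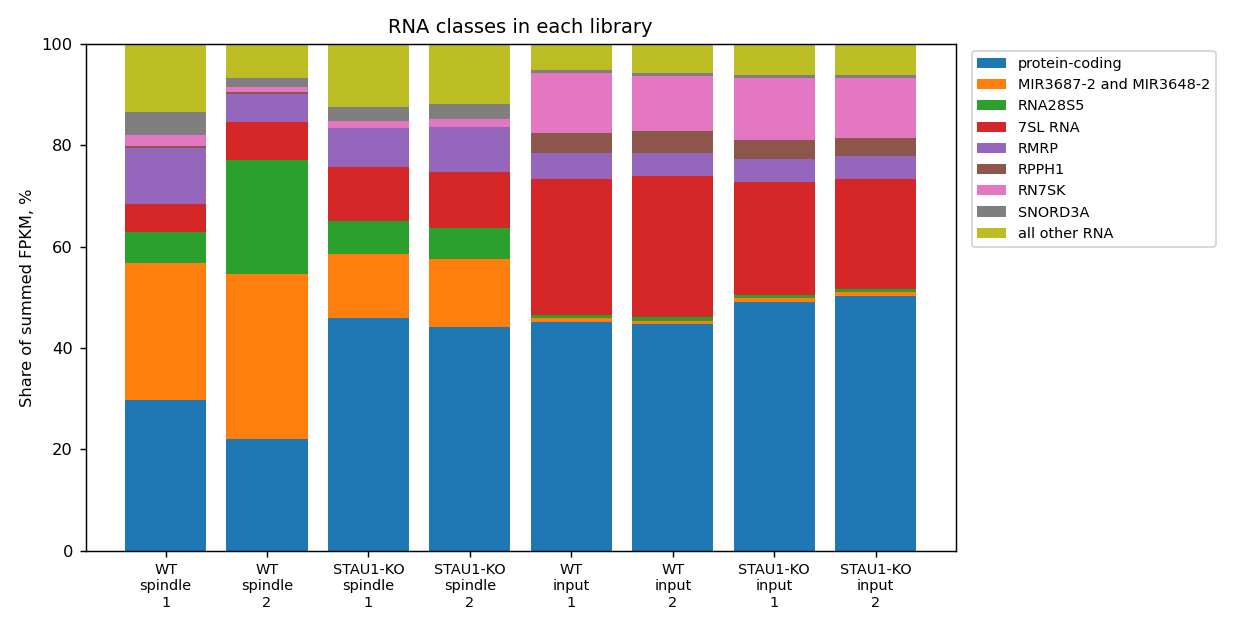
Share of summed FPKM in percent held by each RNA class, as stacked bars for the 4 spindle and the 4 input libraries, 1 bar per library. Coding RNA held 29.8% and 22% in WT spindles against 45.9% and 44.1% in STAU1-KO spindles, and RNA28S5 held 22.5% in WT spindle 2 against 6.11% to 6.48% in the other spindle libraries.

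RPPH1, the RNA of ribonuclease P that trims transfer RNA precursors, had spindle FPKM values of 1510 and 2310 for WT and 126 and 154 for STAU1-KO, from 6759 and 6356 against 904 and 785 reads. The difference was -3.74 (SE 0.42, limma adjusted p = 0.131), and both WT libraries lay far above both STAU1-KO libraries. In input RPPH1 had 21400 and 22000 against 16000 and 15300. RMRP, RN7SK, SNORD3A, RN7SL1 and RN7SL2 were chosen after their values were seen. RMRP, the RNA of the related enzyme ribonuclease MRP, had 35700 and 33900 against 21800 and 26600 in spindles, a difference of -0.53 (SE 1.44, adjusted p = 0.848). TERC, the telomerase RNA, had 375 and 286 against 184 and 182. RN7SK, which restrains transcription elongation, had 6950 and 6140 against 4050 and 4680, and SNORD3A, the U3 RNA of ribosomal RNA processing, had 14300 and 11600 against 8170 and 8370. In these RNAs the genotypes did not overlap and WT was higher, and none passed the test. The 7SL RNAs of the signal recognition particle held 5.55% and 7.53% of summed FPKM in WT and 10.8% and 11.0% in STAU1-KO spindles. RN7SL1 overlapped between genotypes at 7700 and 18100 against 16200 and 16500, as did RN7SL2 at 9360 and 26100 against 13800 and 15100.

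Long noncoding RNAs of a gene list showed no common direction. NEAT1 and MALAT1 were chosen after their values were seen. NEAT1 had an FPKM of 481 and 261 in WT and of 309 and 323 in STAU1-KO spindles, and MALAT1 had 2360 and 1290 against 1910 and 1900, so that the STAU1-KO values lay between the WT values in both. LINC00657 had 46.7 and 36.1 against 21.7 and 20.4 (limma adjusted p = 0.155). Of 28 RNAs of this list tested 0 were separated, with 1 higher and 3 lower at an unadjusted p under 0.05, beside 13.1% and 8.49% of all genes. Of 387 microRNA genes 28 were separated higher (7.24%) and 72 lower (18.6%), beside 3.57% and 2.73% over all genes. Of 317 spliceosomal small nuclear RNA genes 21 were separated higher (6.62%) and 59 lower (18.6%), and most noncoding genes separated had few reads. Of 100 C/D box small nucleolar RNA genes 9 were separated higher and 14 lower, and of 98 H/ACA genes 1 and 8, among them SNORA79 at 126 and 156 against 58.1 and 68.4.

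The coding genes separated higher in STAU1-KO spindles were poorer in GC and had shorter transcripts than coding genes as a whole. Genes separated higher had a median longest transcript of 2160 nt and a median GC content of 41.2%, against 3473 nt and 45.2% over all coding genes tested. Genes separated lower had 3239 nt and 56.7%. In 5 equal bins of coding genes by GC content, from the lowest to the highest, the median difference was 0.38, 0.28, 0.11, -0.12 and -0.27, and 140, 146, 71, 36 and 30 genes were separated higher against 2, 8, 10, 18 and 65 lower. The direction held against each WT library, from 0.34 to -0.14 against WT spindle 1 and from 0.42 to -0.43 against WT spindle 2. The WT libraries also differed along GC, with WT spindle 2 minus WT spindle 1 at -0.08 in the lowest and 0.31 in the highest bin, while input ran from 0.03 to -0.04. In the shortest of 5 bins by transcript length 8.75% of genes were separated higher and 1.23% lower, against 0.924% and 0.748% in the longest. The median difference fell with length against WT spindle 1 alone, from 0.31 in the shortest to 0.03 in the longest bin. Against WT spindle 2 it was 0.08 and 0.07 in these bins. The part of GC content and length in the gene-level differences was not tested.

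**Figure D5:**
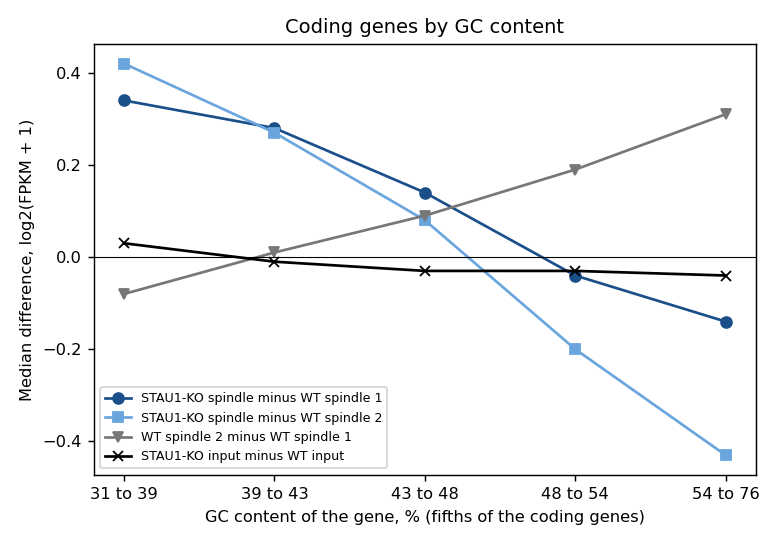
Median difference in log2(FPKM + 1) of coding genes in 5 bins by GC content in percent (2273 genes in each), for STAU1-KO spindles against each WT spindle library, for WT spindle 2 minus WT spindle 1 and for the inputs. Both spindle lines fall from 0.34 and 0.42 in the lowest bin to -0.14 and -0.43 in the highest, and the input line stays between -0.04 and 0.03.

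The genotype difference in spindles was last set against that in input, by a contrast fitted to all 8 libraries. Of 17210 genes, 13 had a positive value of the spindle difference minus the input difference (0.0755%) and 3 a negative one (0.0174%) at an adjusted p under 0.05. CNIH1 led the coding genes at 1.96 (SE 0.15, limma adjusted p = 0.0436), followed by SELENOF, TSPAN6, SERINC1 and YIPF5, all flat in input. The general transcription factor GTF2B had 6.32 and 6.86 against 19.9 and 18.1 in spindles and 20.6 and 22.3 against 19.4 and 20.4 in input. The cyclin-dependent kinase CDK7 had 7.10 and 7.15 against 16.3 and 15.2 in spindles. The 3 with a negative value rested on 3 reads or fewer in each library. These counts depend on single libraries: 0 genes were called in either direction without either STAU1-KO spindle library or any input library, and 2229 and 3034 were called higher, and 1619 and 904 lower, without WT spindle 1 and 2.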

How the data were processed

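Stranded total RNA depleted of ribosomal RNA was sequenced from 2 libraries in each of 4 groups. Per the submitters' processing notes, FastQC, TopHat, featureCounts and DESeq2 were used with GRCh37, and no versions or settings are given in the sources used here. The deposited table lists 17788 genes with FPKM values per library, which the authors scaled between libraries, and, per the file headers, GC content per gene in percent. The deposited base means are a normalised signal averaged over libraries; they served to recover reads per gene, and 100% of them came out whole (within 0.01). Recovered reads gave the depth, from 5.21 M to 14.6 M per library, and 1 alternative test.

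The 10 listed genes on chromosome Y were left out. Differences were taken on log2(FPKM + 1), which understates changes of low genes, for genes with an FPKM of at least 1 in 2 of the libraries fitted. limma 3.58.1 in R 4.3.3 was fitted with a variance trend to the 4 spindle libraries (2 residual degrees of freedom), to the 4 input libraries, and to all 8 for the difference between them. Tests were two-sided with Benjamini-Hochberg adjustment. The spread was not shared with input libraries in the spindle test, because the WT spindle libraries differ more. Gene symbols that the table lists as dates (18) were restored through gene IDs, SELENOF among them. Replicate numbers did not pair the libraries. Genes named in the text were the targeted gene and its paralog, the 12 coding and 6 other separated genes with the smallest p in each direction, up to 3 members of each list with the smallest p, and 8 genes in each direction for the difference between spindle and input; genes known by clone names were left out, and exceptions are named as chosen after their values were seen. The comparison, the gene lists and these rules were chosen with earlier results of these data known. A planned count-model test was replaced by voom in limma, since the deposited values are FPKM.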

Additional observations from a re-analysis of the deposited data

Results flagged for a closer look

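The difference between the genotype change in spindles and that in input passed the test (limma on all 8 libraries, adjusted p under 0.05) for 16 genes, and the 10 that the naming rule covers are given with their values on the log2 scale. Coding genes with a larger difference in spindles were CNIH1 at 1.963, SELENOF at 1.812, TSPAN6 at 1.694, SERINC1 at 1.674, YIPF5 at 1.653, GTF2B at 1.499 and CDK7 at 1.339. The pseudogene PPIAP29 had 2.293 and shares its sequence with other copies of PPIA, so its reads are uncertain. The microRNA genes MIR4519 at -4.453 and MIR548A3 at -3.364 rest on 3 reads or fewer in every library. In each of the 7 coding genes both STAU1-KO spindle libraries lay above both WT spindle libraries, a pattern that the choice of these genes favours. With the replicate block 0 genes were called in either direction, and the calls depended on single libraries, as given above.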

How the results depend on the processing

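Over 170 results for named genes and 2436 alternative values, 2428 kept the sign of the difference. Genes that do not overlap between genotypes cannot change sign when a library is left out. Alternatives were set against the fit over all genes, in which no gene passed, so a call could be gained but not lost. By that measure 556 values passed, calls of the coding-only fit reported above among them, and 1 reversed among called values. That gene, RNA18S5, was chosen after its values were seen and was at -0.03 with all libraries. It ranged from -1.39 to 1.33 when single libraries were left out, with 1.33 without WT spindle replicate 2. Of 448 alternative list medians 417 kept their sign. Equal protein-coding sums moved the median over coding genes from 0.09 to -0.07, and equal upper quartiles to 0.01; the medians of the ER, respiratory chain, histone, spindle assembly, kinetochore and epithelial lists kept their sign under every alternative run.

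In spindles over all genes, 0 were called in either direction. The 8-library fit called 1827 higher and 945 lower, the coding-only fit 316 and 98, voom on recovered reads 127 and 53, and a minimum of 20 recovered reads in 2 of 4 libraries, added after seeing the data like voom, 31 and 11. Leaving out single libraries gave 0 to 2204 higher and 0 to 1600 lower; a lone library was assumed to vary like the other genotype. Separated genes numbered 345 higher and 682 lower with equal coding sums, 942 and 883 with a pseudocount of 0.1, and 170 lower at an FPKM of at least 5 and 110 lower at 20 reads. Leaving out single libraries gave 651 to 1096 higher and 495 to 855 lower.

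The coding-only fit called 157 higher and 148 lower with equal coding sums, 203 lower with equal upper quartiles, 2422 and 1235 with all 8 libraries, 157 and 53 with a pseudocount of 0.1, and 126 and 52 with voom. Leaving out single libraries gave 140 to 4180 higher and 53 to 2933 lower. With the replicate block the coding-only fit called 1294 and 652, the fit of all genes 0 and 0 (smallest adjusted p 0.0758), the difference between spindle and input 0 and 0, and input 0 and 2. The replicate numbers are shared only as numbers: deviations of same-numbered spindle libraries correlated with r = 0.00741.

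For the difference between spindle and input, equal coding sums gave 145 higher and 149 lower, a pseudocount of 0.1 gave 146 and 28, and leaving out single libraries gave 0 to 3034 higher and 0 to 1619 lower. For input, equal coding sums gave 132 higher, and leaving out single libraries gave 0 to 15 higher and 0 to 16 lower. The causes of these shifts were not tested. A count-model test was planned for deposited counts and was not run, because the deposited values are FPKM. On recovered reads, voom in limma was run in its place. Depth limits noncoding genes most, since most separated ones had fewer than 20 reads per library.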
